A study of Homo sapiens with 19 samples.

Results

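The APOBEC3 genes, a cluster of antiviral cytidine deaminase genes on chromosome 22, were examined for H3K27ac, the acetylated form of histone H3 lysine 27, in 4 human leukaemia cell lines. The members were the 7 protein-coding genes APOBEC3A, APOBEC3B, APOBEC3C, APOBEC3D, APOBEC3F, APOBEC3G and APOBEC3H, taken by name from the GENCODE v44 annotation of hg38, of 20033 protein-coding genes in all. A member was called marked in a line when an H3K27ac peak lay within 500 bp of a transcription start site (TSS) of any of its transcripts. The series held 19 samples, and the peak lists of 5 were analysed here, among them 4 for H3K27ac. HL-60 and Molm13, both from acute myeloid leukaemia (AML), were untreated. OCI-AML3, also from AML, and K562, from chronic myelogenous leukaemia, both carried lentiviral dCas9-KRAB-mCherry, a catalytically dead Cas9 fused to a repressor domain, together with an empty guide vector bearing a BFP reporter, and were sorted for both fluorescent proteins. Cell line and vector therefore cannot be told apart in comparisons of the untreated with the transduced lines. Each line contributed 1 library, the sequencing depth was unknown and no test between lines was possible, so all differences below are descriptions without a replicate check.

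APOBEC3 enzymes convert cytosine to uracil in single-stranded DNA, and several of them restrict retroviruses and endogenous retroelements by mutating the DNA made during reverse transcription. APOBEC3G and APOBEC3F are packaged into HIV particles that lack Vif, the viral protein that directs APOBEC3 proteins to degradation. APOBEC3B and APOBEC3A are also known for mutations they leave in tumour genomes, and APOBEC3A is abundant in monocytes and induced by interferon. APOBEC3B, APOBEC3D, APOBEC3F and APOBEC3G carry a pair of deaminase domains, whereas APOBEC3A, APOBEC3C and APOBEC3H carry a lone domain. H3K27ac lies on nucleosomes at active promoters and enhancers. A peak is therefore a measure of a chromatin mark and not of RNA or protein.

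The cluster ran from position 38952741 to 39104067 of chromosome 22, a span of 151.3 kb, with all 7 members on the plus strand. From the first to the last, the canonical TSS of APOBEC3A (ENSG00000128383.14) lay at 38957609, of APOBEC3B (ENSG00000179750.16) at 38982347, of APOBEC3C (ENSG00000244509.4) at 39014257 and of APOBEC3D (ENSG00000243811.12) at 39021127. Those of APOBEC3F (ENSG00000128394.17), APOBEC3G (ENSG00000239713.9) and APOBEC3H (ENSG00000100298.16) lay at 39040864, 39077275 and 39097244. The annotation placed 1 further protein-coding gene inside the cluster, ENSG00000284554, a readthrough of APOBEC3C into APOBEC3D (39014363 to 39033276). The only other protein-coding gene within 50 kb was CBX7, a Polycomb subunit on the minus strand (39120167 to 39152680). Its 3′ end lay 16.1 kb beyond APOBEC3H.

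The narrowest APOBEC3 peak at a TSS, that of APOBEC3H in OCI-AML3, lay wholly within the first intron, and this stretch has relatives in most other members. Its sequence was therefore aligned to the cluster with blastn, a choice made after the peaks had been seen. It matched 9 stretches including itself, of which 6 lay in the first intron of APOBEC3B, APOBEC3C, APOBEC3D, APOBEC3F, APOBEC3G and APOBEC3H. No match was found at APOBEC3A. The 6 stretches started between 119 bp (APOBEC3H) and 434 bp (APOBEC3D) downstream of the canonical TSS, and every peak at an APOBEC3 start site covered the stretch of its gene, with 271 of 272 bases for APOBEC3F in OCI-AML3 and all bases otherwise. Those of APOBEC3B, marked in 3 lines, and APOBEC3H, the query, are printed as examples of this shared stretch. They are given 5′ to 3′ on the plus strand of hg38, with capitals for the bases identical in all 6 in a multiple alignment of 273 columns, of which 169 were identical.

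APOBEC3B, chr22:38982493-38982752: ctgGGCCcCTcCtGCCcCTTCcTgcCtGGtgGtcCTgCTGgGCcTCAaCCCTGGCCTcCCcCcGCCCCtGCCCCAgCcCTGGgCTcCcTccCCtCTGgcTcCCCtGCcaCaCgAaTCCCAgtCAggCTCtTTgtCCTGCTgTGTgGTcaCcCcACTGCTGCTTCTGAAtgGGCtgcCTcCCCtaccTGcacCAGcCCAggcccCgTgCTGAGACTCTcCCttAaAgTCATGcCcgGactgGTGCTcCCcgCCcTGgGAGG
APOBEC3H, chr22:39097363-39097628: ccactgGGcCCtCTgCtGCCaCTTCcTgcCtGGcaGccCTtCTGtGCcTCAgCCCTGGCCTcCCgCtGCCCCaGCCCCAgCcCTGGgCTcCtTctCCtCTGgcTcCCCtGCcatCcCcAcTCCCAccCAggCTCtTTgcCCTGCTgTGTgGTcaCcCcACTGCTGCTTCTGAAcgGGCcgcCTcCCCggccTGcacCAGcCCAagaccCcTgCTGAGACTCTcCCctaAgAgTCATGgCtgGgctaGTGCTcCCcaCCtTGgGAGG

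Pairwise identity ranged from 82.6%, between APOBEC3C and APOBEC3H, to 92.1%, between APOBEC3F and APOBEC3G, and the longest run of identical columns was 15. The other 3 relatives lay deeper in the genes, in the fourth canonical intron of APOBEC3B (38987206 to 38987467, 85.1% identical to the APOBEC3H stretch), APOBEC3D (39027669 to 39027924, 85.1%) and APOBEC3F (39047530 to 39047791, 81.4%), each a member with a pair of deaminase domains. All 9 were free of 75-mers repeated elsewhere in the genome.

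H3K27ac at the APOBEC3 start sites differed between lines in which genes were marked (see the map of peaks over the cluster). HL-60 had a peak at 0 of the 7 members, against 44.7% of all protein-coding genes. Molm13 had a peak at 2 members (28.6%), against 53.9%. OCI-AML3 and K562 each had a peak at 5 members (71.4%), against 57.7% and 55.9% of all protein-coding genes. The members thus lay below the background share in HL-60 and Molm13. In OCI-AML3 and K562 they lay above it by a margin that is small for 7 genes. In OCI-AML3 this rested on the distance allowed: when a peak had to overlap the TSS itself, 2 of 7 members (28.6%) were marked there, against 54.3% of all protein-coding genes. In the other lines the members stayed at 5 in K562 (all genes 51.7%), 2 in Molm13 (49.7%) and 0 in HL-60 (38.9%). APOBEC3B and APOBEC3C were marked in Molm13, OCI-AML3 and K562, APOBEC3F and APOBEC3G in OCI-AML3 and K562, APOBEC3D in K562, APOBEC3H in OCI-AML3 and APOBEC3A in none. Of all protein-coding genes, 7.15% had the combination seen at APOBEC3B and APOBEC3C, 2.1% that of APOBEC3F and APOBEC3G, 4.78% that of APOBEC3D, 1.95% that of APOBEC3H and 35.4% that of APOBEC3A. By contrast, 40.5% of all genes were marked in all 4 lines, and no member was.

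**Figure D1:**
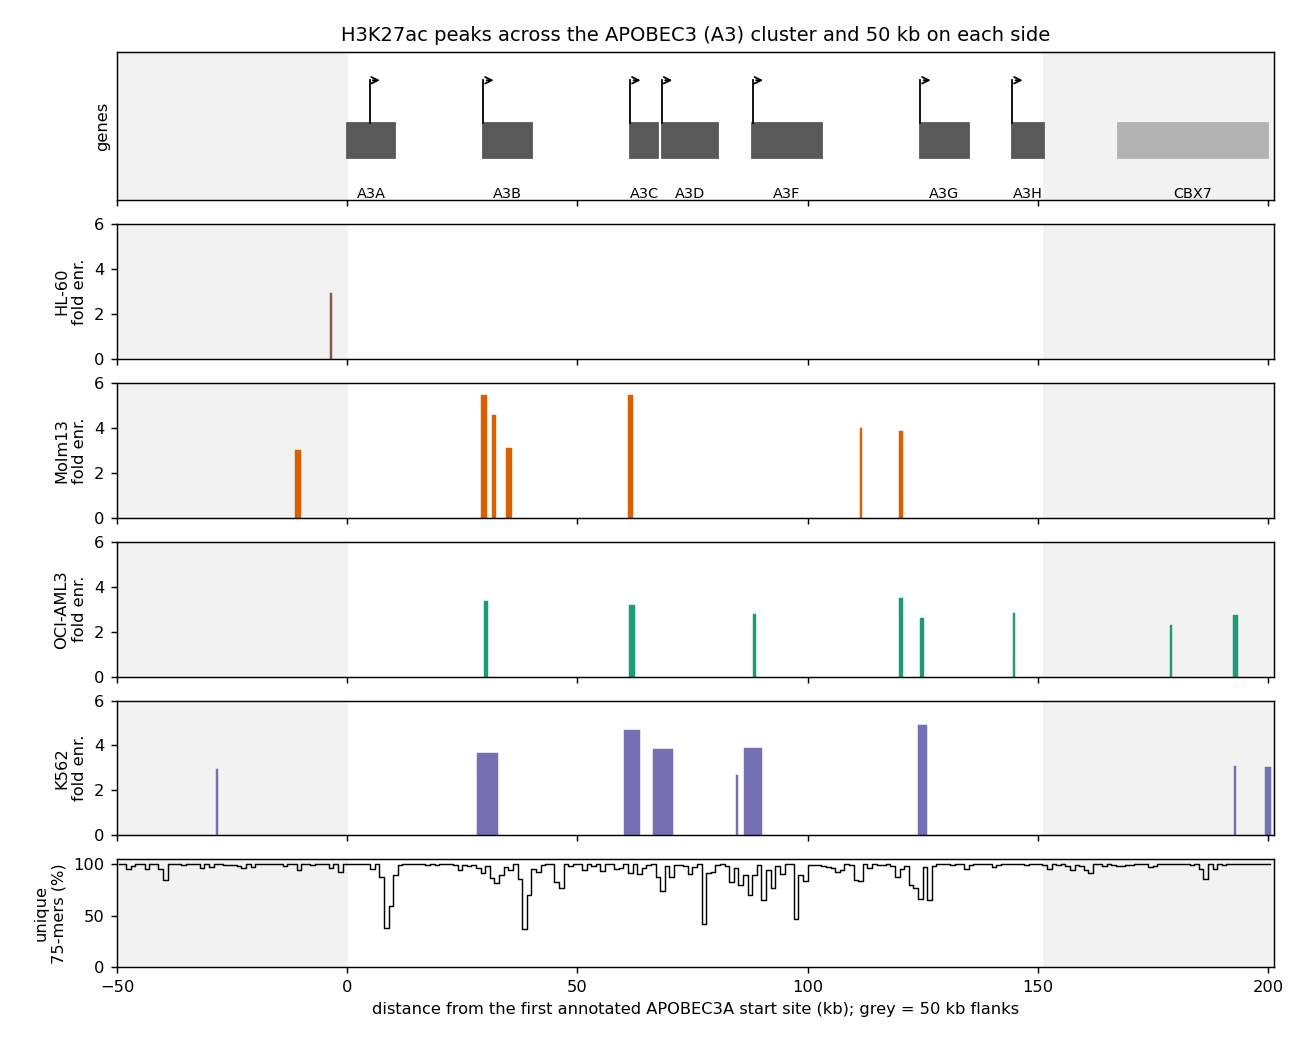
H3K27ac peaks over the APOBEC3 cluster and 50 kb on each side, by distance in kb from the first annotated APOBEC3A start site. The top row shows the genes with arrows at the canonical start sites, the 4 middle rows show each line's peaks as bars whose width is the peak and whose height is its fold enrichment, and the bottom row shows the percentage of 75-mers that occur once in the genome in bins across the region. HL-60 has no peak inside the cluster, and K562 has the widest peaks at the start sites of APOBEC3B, APOBEC3C, APOBEC3F and APOBEC3G.

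APOBEC3B, which encodes a nuclear deaminase, was marked over its first exon and first intron in 3 lines. The fold enrichment of the peak over the local background, as given by the peak caller, was 5.47 in Molm13 (38981893 to 38982953, q = 2.73e-07), 3.347 in OCI-AML3 (38982449 to 38983051, q = 0.000103) and 3.672 in K562 (38980997 to 38985245, q = 1.4e-05). Since fold enrichment depends on the library, each value was also set against the other peaks of its list, where these ranked at the 76.3, 65.0 and 82.2 percentiles. In width the peak spanned 4249 bp in K562, 1061 bp in Molm13 and 603 bp in OCI-AML3. The OCI-AML3 peak started 102 bp downstream of the TSS, whereas the other peaks contained it. A further Molm13 peak of 525 bp in the first part of the gene body (38984262 to 38984786, fold enrichment 4.56) fell wholly inside the wide K562 peak. Molm13 also had a weaker peak of 1082 bp over the deeper intronic relative of APOBEC3B (38987166 to 38988247, fold enrichment 3.126, q = 0.0325), where the other lines had none.

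APOBEC3C, a lone-domain member expressed in many tissues, was marked in the same 3 lines as APOBEC3B. Fold enrichment was 5.456 in Molm13 (39013850 to 39014713, q = 3.19e-07), 3.167 in OCI-AML3 (39013990 to 39015096, q = 2.48e-08) and 4.695 in K562 (39012798 to 39016079, q = 7.02e-09). These ranked at the 76.1, 58.8 and 97.8 percentiles of their lists, so the K562 peak stood highest within its own list. Each of the 3 peaks contained the TSS, and all 3 shared 724 bp. In the 500 bp on each side of the TSS, 8.63% of the 75-mers of APOBEC3C also occurred in the window of APOBEC3B, all of them upstream of the start sites.

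APOBEC3D, whose start lies close behind the end of APOBEC3C, was marked in K562. The peak (39019158 to 39023311, 4154 bp, fold enrichment 3.833, q = 4.78e-06) covered the last exon of APOBEC3C, the APOBEC3D TSS and the first exons of APOBEC3D. It was 1 of 2 APOBEC3 peaks at a TSS with no overlap in another line. The nearest OCI-AML3 peaks left 25.9 kb around the APOBEC3D start site without a peak, and in Molm13 the peak-free stretch over APOBEC3D and APOBEC3F was 49.38 kb. The readthrough gene ENSG00000284554, which starts near APOBEC3C and runs into APOBEC3D, was marked in Molm13, OCI-AML3 and K562 and not in HL-60. Its peaks were those at the APOBEC3C start site.

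APOBEC3F and APOBEC3G, the members best known for restricting HIV without Vif, were both marked in OCI-AML3 and K562. At APOBEC3F, fold enrichment was 2.797 in OCI-AML3 (39040998 to 39041355, q = 0.00184) and 3.892 in K562 (39038918 to 39042535, q = 2.46e-06). At APOBEC3G, it was 2.606 in OCI-AML3 (39077228 to 39077774, q = 0.000675) and 4.931 in K562 (39076770 to 39078529, q = 1.33e-09). The K562 peak at APOBEC3G ranked at the 98.8 percentile of its list by fold enrichment and had the smallest q-value of the 25 peaks in the cluster and its flanks, whereas the OCI-AML3 peak there ranked at the 28.7 percentile. The OCI-AML3 peak at APOBEC3F was 358 bp wide and started 134 bp downstream of the TSS, over the intronic stretch, and the K562 peak of 3618 bp contained all of it. The OCI-AML3 peak at APOBEC3G, of 547 bp, likewise fell inside the K562 peak of 1760 bp.

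APOBEC3H, a polymorphic lone-domain member at the end of the cluster, was marked in OCI-AML3. The peak (39097363 to 39097628, 266 bp) had a fold enrichment of 2.83, a q-value of 1.35e-05 and a width at the 3.32 percentile of its list, and it began 119 bp downstream of the TSS. In K562 the stretch without a peak that held the APOBEC3H start site was 66.75 kb long. APOBEC3A had no peak at any of its 4 annotated start sites in any line, and the peak-free stretch around its canonical TSS was 39.39 kb in Molm13, 56.57 kb in K562, 109.5 kb in OCI-AML3 and 367.4 kb in HL-60, where it held the start sites of all 7 members.

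**Figure D2:**
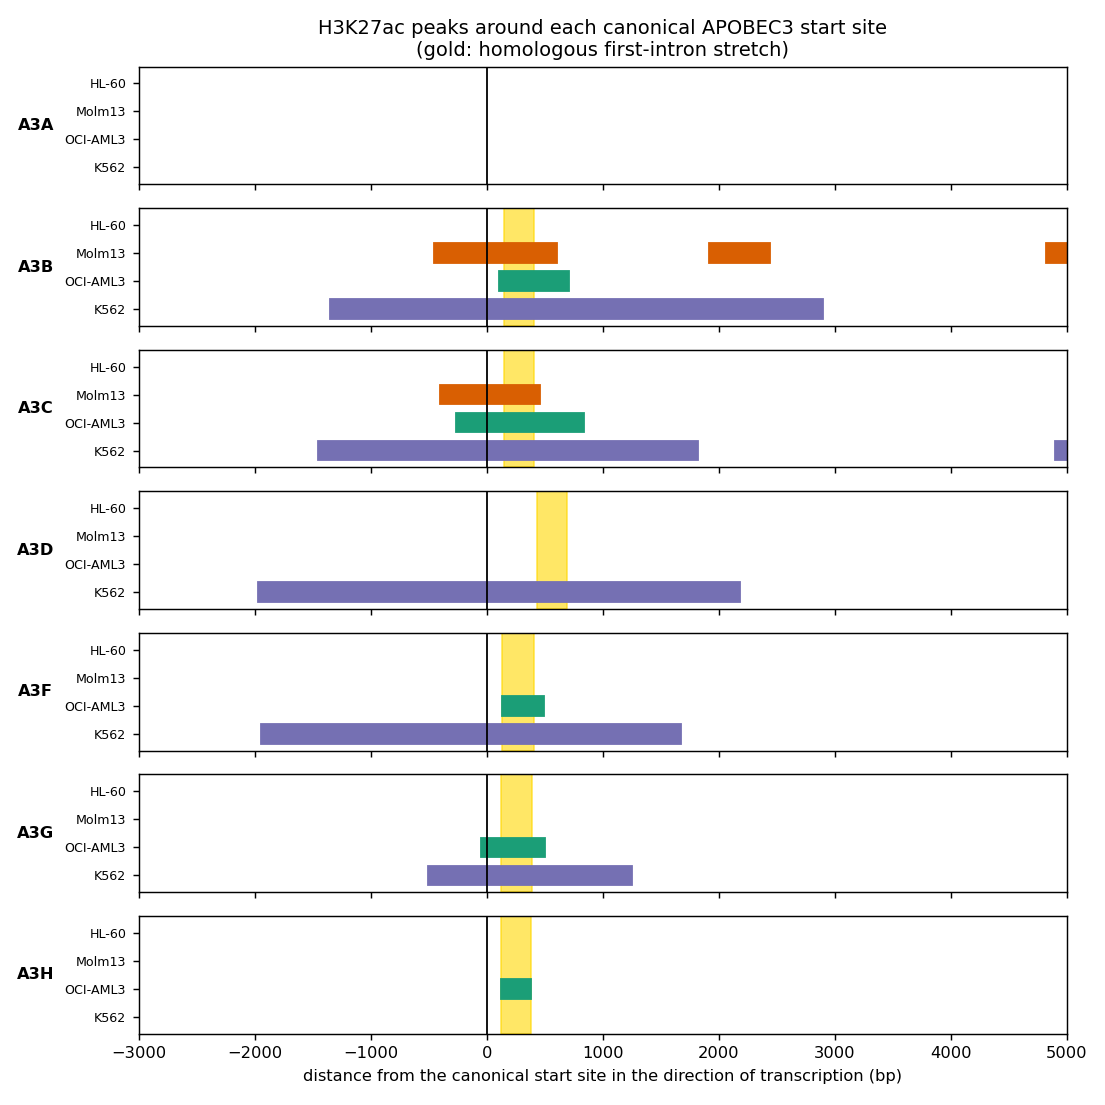
Extent of each H3K27ac peak around the canonical start site of each APOBEC3 gene, in bp along the direction of transcription, with 1 row per line and the homologous first-intron stretch in gold. The OCI-AML3 peaks at APOBEC3B, APOBEC3F and APOBEC3H begin downstream of the start site (102, 134 and 119 bp), and every peak at a start site covers the gold stretch of its gene.

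The first-intron stretches were also read for coverage by peaks. Of the 6 stretches, peaks covered 5 each in OCI-AML3 and K562, 2 in Molm13 and 0 in HL-60. The APOBEC3H stretch is the OCI-AML3 peak itself and the others lie within or close to the 500 bp used to place peaks at start sites, so this coverage is a description and follows largely from how stretch and peaks were chosen. Of the 3 deeper relatives, the APOBEC3B copy was covered in Molm13 and none was covered in the other lines. Within the 6 first-intron stretches a GC box (GGGCGG, searched on both strands) was found 2 times in APOBEC3B and 1 time each in APOBEC3C and APOBEC3D, and a gamma-activated sequence (GAS, TTCNNNGAA) 1 time in APOBEC3D. The interferon-stimulated response element (ISRE) core GAAANNGAA was found in none of the 6.

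Beside all peaks at protein-coding start sites, the APOBEC3 peaks at start sites were weak and narrow in OCI-AML3 and mostly wide in K562. In OCI-AML3 the 5 peaks had a median fold enrichment of 2.83 (range 2.606 to 3.347) and a median width of 547 bp (266 to 1107 bp), against medians of 3.915 and 2004 bp over all peaks at protein-coding start sites of that line. In K562 the 5 peaks had a median fold enrichment of 3.892 (3.672 to 4.931) and a median width of 3618 bp (1760 to 4249 bp), against 3.617 and 2642 bp. The 2 Molm13 peaks had fold enrichments of 5.456 and 5.47 and widths of 864 and 1061 bp, against 6.113 and 1798.5 bp. All 5 OCI-AML3 values and both Molm13 values lay below the median of their line in both measures, whereas all 5 K562 values lay above it in fold enrichment and 4 of 5 in width, APOBEC3G being the exception.

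**Figure D3:**
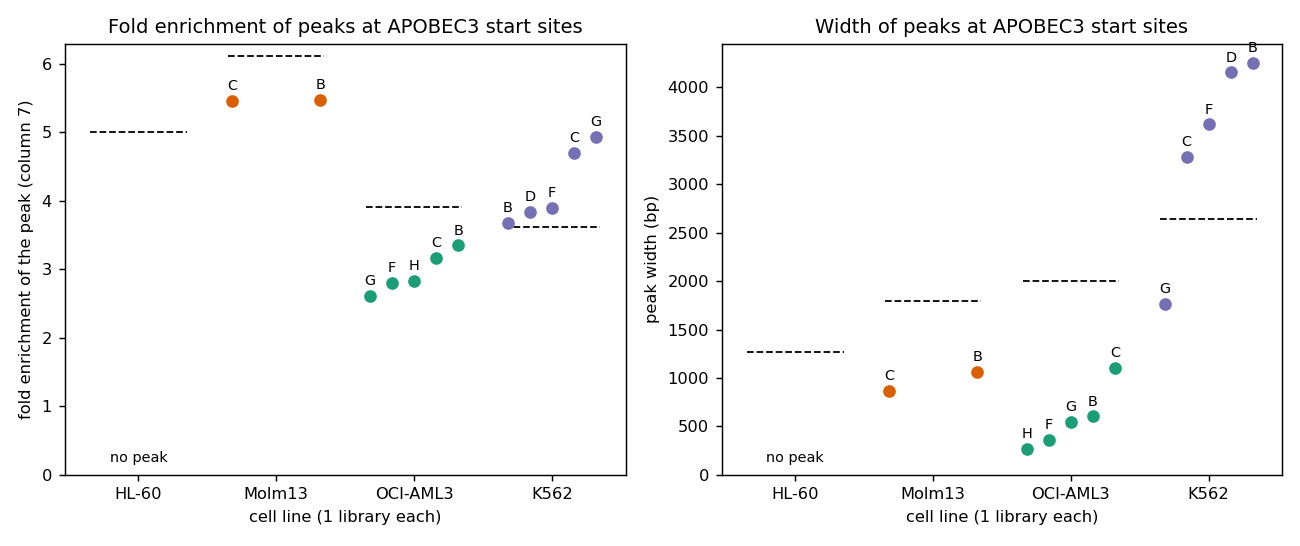
Fold enrichment (left) and width in bp (right) of the H3K27ac peaks at APOBEC3 start sites, with 1 point per gene, lettered by its last letter, and 1 library per line. Dashed lines give the median over all peaks at protein-coding start sites of the line, below which all OCI-AML3 and Molm13 points lie.

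The cluster as a whole was covered most in K562. Peaks covered 11.4% of its bases in K562, 3.03% in Molm13, 2.37% in OCI-AML3 and 0% in HL-60. Over the genome, the covered shares were 2.62%, 1.98%, 2.39% and 0.82% in the same order, so the cluster stood at 4.37 times the share of the genome in K562, 1.53 times in Molm13 and 0.991 times in OCI-AML3. Chromosome 22 itself was covered more than the genome, to 3.47% in K562, 3.2% in Molm13, 3.53% in OCI-AML3 and 1.61% in HL-60. Set against its own chromosome, the cluster stood at 3.3 times in K562, 0.946 times in Molm13 and 0.671 times in OCI-AML3. The 50 kb flanks were covered to 1.65%, 1.04%, 1.22% and 0.242%. Taken over the 4 lists, the 18 peaks of the cluster merged into 10 regions. Of these, 5 were found in 1 line, 3 in 2 lines and 2 in 3 lines. Among the 18 peaks, 13 overlapped a peak of another line. The matching share over all peaks of the lists is not given here, so whether such an overlap is usual cannot be said.

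Beyond the start sites, 1 region inside the cluster was shared by Molm13 and OCI-AML3 and not found in K562 or in HL-60, also an AML line. It lay between APOBEC3F and APOBEC3G, with 39072523 to 39073300 in Molm13 (fold enrichment 3.844, q = 0.000499) and 39072650 to 39073351 in OCI-AML3 (3.521, q = 1.41e-05), and its nearest edges were 3975 and 3924 bp upstream of the APOBEC3G TSS. In OCI-AML3 its fold enrichment exceeded that of all 5 peaks at APOBEC3 start sites. Molm13 had this peak with no peak at the APOBEC3G start site. Further peaks between genes of the cluster, each found in 1 line, were 39064090 to 39064363 in Molm13 (274 bp, 3.994), also between APOBEC3F and APOBEC3G, and 39037254 to 39037477 in K562 (224 bp, 2.694), 3387 bp upstream of APOBEC3F. In HL-60 the nearest peak to the cluster lay in the left flank, 8356 bp upstream of the canonical APOBEC3A TSS (38949012 to 38949253, 242 bp). Its fold enrichment of 2.95 ranked at the 9.68 percentile of that list and its q-value was 0.063. The HL-60 peak is printed because it was the nearest to APOBEC3A in any line. The left-flank peaks of Molm13 (38941458 to 38942499) and K562 (38924189 to 38924428) also held 1 ISRE core each in the stretch searched. Among all peaks of at least 300 bp, the central 300 bp held an ISRE core in 10.8% in Molm13 and 11.3% in K562. The K562 left-flank peak, of 240 bp, is shorter than the peaks of that set. No ISRE core was found in the stretches searched inside the cluster or in the right flank. The HL-60 sequence is shown 5′ to 3′ on the plus strand of hg38, with motif matches in capitals, an ISRE core and then a GAS.

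Upstream of APOBEC3A, chr22:38949012-38949253: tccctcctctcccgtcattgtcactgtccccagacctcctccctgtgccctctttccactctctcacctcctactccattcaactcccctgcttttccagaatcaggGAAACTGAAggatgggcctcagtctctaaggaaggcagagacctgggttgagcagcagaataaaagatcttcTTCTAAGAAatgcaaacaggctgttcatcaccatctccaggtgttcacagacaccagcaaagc

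The motif search covered 8 patterns on both strands, 3 of which (GC box, GAS and ISRE core) are spelled out above. The core of a cell cycle homology region (CHR) was searched as TTTGAA. The core bound by GATA factors was searched as AGATAA. The cyclic AMP response element was searched by its full palindrome, TGACGTCA. The core of sites for PU.1 and other ETS factors was searched as GAGGAA. The TATA box was searched in its shortest common form, which reads TATAAA. Among the 18584 HL-60 peaks of at least 300 bp on chromosomes 1 to 22, X and Y, the central 300 bp held an ISRE core in 10.2% and a GAS in 8.49%, a set that leaves out shorter peaks such as the 242 bp peak printed here. Among 35116 RefSeq promoters of hg38, ISRE cores stood in 8.11%, GAS in 7.66%, GC boxes in 45.0%, CHR cores in 15.2%, ETS cores in 27.9%, GATA cores in 10.3%, TATA boxes in 11.5% and cyclic AMP response elements in 1.85%. The RefSeq promoter of APOBEC3H, the member matched in that table, held 1 ETS core and none of the other patterns. A match describes letters in a window and does not show that a factor binds there.

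The start sites of all 7 members were poor in CpG. The ratio of observed to expected CpG within 500 bp of the canonical TSS was 0.192 for APOBEC3A, 0.199 for APOBEC3B, 0.255 for APOBEC3C, 0.377 for APOBEC3D, 0.276 for APOBEC3F, 0.271 for APOBEC3G and 0.161 for APOBEC3H. The median was 0.255, against 0.725 over all protein-coding genes, while the median GC content was close, at 60.4% and 61.3%. Since H3K27ac peaks were less frequent at CpG-poor start sites, the members were also set against the 4754 protein-coding genes with a ratio no higher than that of APOBEC3D. Of these, 20.2% were marked in OCI-AML3 and 18.6% in K562, beside 5 of the 7 members each, 18.8% in Molm13, beside 2, and 11.7% in HL-60, beside 0. With this background and the 500 bp distance, the member share was above the background in OCI-AML3 and K562. In Molm13 and HL-60 the counts of members were close to what the background share gives for 7 genes. Fold enrichment and width of the peaks were not set against these CpG-poor genes.

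The members also differed in how far lone reads could be placed on them, since the authors kept uniquely mapped reads of 75 bp. The study names both single-end and paired-end sequencing, and the second read of a pair was not taken into account here. Of the 75-mers within 500 bp of the TSS, 100% occurred once in the genome at APOBEC3H, 95.6% at APOBEC3A, 91.4% at APOBEC3B and APOBEC3C, 69.7% at APOBEC3D, 66.6% at APOBEC3F and 63.9% at APOBEC3G. The repeated 75-mers of the last 3 lay mostly upstream, where 42.3%, 35% and 27.9% were unique, against 91.8%, 93.4% and 93.4% downstream. APOBEC3F and APOBEC3G shared 28.3% of the 75-mers of their windows, APOBEC3D and APOBEC3G 21.4%, and APOBEC3D and APOBEC3F 18.7%. Peak edges upstream of these 3 genes may therefore be less well placed than those downstream, and the part of this in the offset of the OCI-AML3 peak at APOBEC3F was not tested. The OCI-AML3 peaks at APOBEC3B and APOBEC3H were also offset. At APOBEC3B, 81.2% of the 75-mers were unique upstream of the TSS and 100% downstream, and at APOBEC3H all were unique on both sides. Whether read placement played a part in these offsets was not tested either. APOBEC3A, without a peak in any line, had 100% unique 75-mers upstream and 90.4% downstream.

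Other genes of antiviral defence were set beside the members (see the plot of shares by gene list). Of 24 other restriction factors, cell proteins that block retroviruses at various steps, 23 were marked in OCI-AML3, 22 in Molm13, 18 in K562 and 16 in HL-60, 12 of them in all 4 lines. Of 4 glycosylases that excise uracil or thymine from DNA and so act on products of deamination, 3 were marked in HL-60 and 4 in each other line, with SMUG1 unmarked in HL-60. Of 14 interferon signalling genes, 13 were marked in HL-60 and 14 in each other line, IRF9 being unmarked in HL-60. In HL-60, 13 of the 14 interferon signalling genes thus carried the mark, whereas the 7 members did not. Of the 4754 protein-coding genes with a CpG ratio no higher than that of APOBEC3D, 11.7% were marked in HL-60. The CpG ratios of the interferon signalling genes are not given here, and the cause of the difference was not tested.

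The 12 restriction factors marked in some lines only included the combination of APOBEC3B and APOBEC3C 5 times, at BST2, a tether of budding virions, at IFITM2 and IFITM3, which hinder fusion of virus and cell, at MOV10, an RNA helicase, and at SHFL, an inhibitor of ribosomal frameshifting. Fold enrichments in Molm13, OCI-AML3 and K562 were 4.838, 4.269 and 4.404 at BST2 and 3.25, 2.239 and 4.928 at IFITM3. IFITM1 was marked in OCI-AML3 (3.588) and K562 (3.924), as APOBEC3F and APOBEC3G were, and the OCI-AML3 peak there was the one at IFITM2. The reverse combination, marked in HL-60, Molm13 and OCI-AML3 and not in K562, was found at TRIM22 (3.192, 3.118 and 3.5), MX2 (4.481, 4.7 and 3.703) and SLFN11 (8.232, 5.319 and 4.302), and at 0 of the 7 members, against 2.22% of all protein-coding genes. MX1 was marked in HL-60 (3.729) and OCI-AML3 (2.626), SLFN5 in Molm13 (4.2) and OCI-AML3 (2.931), and GBP5 in Molm13 (3.042).

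The genes whose profile over the 4 lines was most like that of a member were found by the distance between percentiles of fold enrichment within each list. For APOBEC3B they were ZNF34 (distance 3.89 percentile points) and SYNRG (4.11), and for APOBEC3C EHHADH (2.83) and CAPN1 (3.19). For APOBEC3F they were ERICH2 (0.186) and FZD7 (2.62), and for APOBEC3G CEP85L (0.951) and DHRS13 (4.52). APOBEC3D, marked in 1 line, was nearest to RASGEF1A (0.0187) and to ENSG00000262560 (0.0668), and APOBEC3H to LDHC (0.0532). With 4 points per gene, most of them 0 for the last 2 members, such likeness is a description only.

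Beside the cluster, CBX7 was marked at its TSS in K562 (39152116 to 39153269, 1154 bp, fold enrichment 3.055) and not in the other lines. An intronic CBX7 peak was shared by OCI-AML3 (39145081 to 39146061) and K562 (39145281 to 39145539). Markers of the lines were checked in the same way. Of 7 erythroid genes, all were marked in K562 and 1, EPOR, in each AML line, and of 7 myeloid genes 6, 7 and 7 were marked in HL-60, Molm13 and OCI-AML3 and 3 in K562. Of HOXA9, HOXA10 and MEIS1, 3 were marked in Molm13 and OCI-AML3, 1 in K562 and 0 in HL-60. The OCI-AML3 list held 37606 peaks, K562 37484, Molm13 35206 and HL-60 20814, so the line without a marked member also had the shortest list. When peaks were limited to q-values below 0.001, 5 members were marked in K562, 4 in OCI-AML3, 2 in Molm13 and none (0) in HL-60, with APOBEC3F lost in OCI-AML3, against 49.5%, 53.3%, 47.4% and 36.2% of all protein-coding genes in the same order. With each list cut to its 20814 strongest peaks, the length of the HL-60 list, the counts of members were again 5, 4, 2 and 0. The HL-60 count of 0 could not change with this cut, and a q-value limit could not raise it. No share of all genes is given for the cut lists. The dCas9 list, from K562 cells with guides against LTR2B, a family of retroviral long terminal repeats, held 395 peaks, of which 8 lay on chromosome 22 and 0 in the cluster or within 50 kb of it.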

How the data were processed

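Chromatin immunoprecipitation followed by sequencing was analysed for 5 of 19 samples, grouped by their titles, and 14 samples were not used here. According to the methods of the study, 75 bp reads were trimmed by the authors with Trim Galore and mapped to hg38 by Bowtie2. They kept uniquely mapped reads and called peaks per sample with MACS2 (broad option for H3K27ac). The submitters' processing notes name Trim Galore 0.4.5, Bowtie2 2.3.4, MACS2 2.1.1 and deepTools. Which control library was used for calling is not given in the sources used here. The deposited lists hold, for each peak, a score, the −log10 p-value, the −log10 q-value and a ratio, the fold enrichment over local background. The deposited q-values reached 0.0947 to 0.0995, and those of 5.46% to 15.0% of peaks per list exceeded 0.05.

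Depth was not given, so no interval could be computed. Peaks were placed at a TSS within 500 bp of any GENCODE v44 transcript start, and overlaps required 1 bp. Coordinates are 1-based hg38. Coverage was taken over chromosomes 1 to 22, X and Y. The names follow a rule: the 7 members, protein-coding genes within 50 kb, list genes marked in some lines only (up to 12), and the 2 genes nearest to each member by percentile profile. The members and the lists were chosen with earlier results of these data known. Uniqueness was computed for 75-mers on both strands. RefSeq promoters (hg38) matched 1 of 7 members, and protein sequences were not used here. A few genes and sequences that these rules select are not reported here. The first-intron copies were found with blastn 2.17.0 and aligned with MAFFT 7.526. Python 3.11.15, NumPy 2.4.6, pandas 2.3.3, numba 0.67.0 and Matplotlib 3.10.9 were used. The peak assignment was tested on simulated data on chromosome 22, where 447 of 447 genes came out as made. Alternatives were the TSS distance (0, 1000 and 2000 bp), canonical TSSs, q-value limits (0.05 and 0.001), lists of equal length, merging within 1 kb, a 50% overlap and, chosen after the data were seen, another blastn query.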

Additional observations from a re-analysis of the deposited data

How the results depend on the processing

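The counts of marked APOBEC3 genes moved in OCI-AML3 with the definition of a start site peak. When a peak had to overlap the TSS itself (0 bp), 2 members remained there, APOBEC3C and APOBEC3G, because the peaks at APOBEC3B, APOBEC3F and APOBEC3H start downstream, while the counts in the other lines were unchanged. At 1000 bp, at 2000 bp, at canonical TSSs, with q-values below 0.05 and after merging peaks within 1 kb, the counts of marked members were 0, 2, 5 and 5 as before. No share of all protein-coding genes is given for these settings, so how the members stood against the background there cannot be said. The share of the flanks covered by peaks fell to 0 in HL-60 at q-values below 0.05 and below 0.001, and to 0 in Molm13 at q-values below 0.001 and with lists of equal length, since the lone flank peak of each line was then absent. Of 114 values recomputed under the alternatives planned, 109 moved by at most 1.5 times. These include HL-60 values of 0, which q-value limits and lists of equal length could not raise. Of the 18 cluster peaks, 9 were covered to at least 50% in another line, and with q-values below 0.001 an overlap was found for 11 of 14. Here too the share over all peaks of the lists is not given. Taking the APOBEC3F stretch as the blastn query again gave 9 copies, 6 of them in first introns. No paired analysis was possible because each line had 1 library and no test was made. For the same reason no replicate could be left out. Depth, which was unknown, limits what the absence of a peak shows: in HL-60 the mark was not detected at the APOBEC3 start sites in this list.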
